A study of Homo sapiens with 6 samples.

Results

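The genes described here are YAP1, WWTR1, TEAD4, AMOTL1 and AJUBA, which are components of the Hippo pathway, and CTGF, CYR61, ANKRD1, AMOTL2 and LATS2, which are known targets of YAP and TEAD. AMOTL2 and LATS2 also act in the pathway, and they were placed with the targets. These 10 genes, of 37803 gene symbols found once in both deposited tables, were chosen by name with their knockout and wild-type values already known. Their differences between knockout and wild type are therefore given as a description, with no test. All 10 symbols were found in both tables, and all 10 passed the filter on low values, a mean over the 6 libraries of 1 FPKM or more. FPKM is a fragment count scaled by transcript length and by library size, so levels of different genes can be compared on it.

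RNA was sequenced from the human embryonic stem cell line H1, with or without deletion of SNAI1, a zinc-finger repressor of epithelial genes. All cells were collected on day 2 of hematopoietic differentiation, when mesoderm forms, and all received activin A and BMP4. The groups were WT (n = 2), SNAI1_KO_1 (n = 2) and SNAI1_KO_2 (n = 2). The study describes CRISPR/Cas9 knockout lines carrying frameshifts, and the sample titles do not say whether the leading number of a knockout sample marks a line. The FPKM values lie in 2 tables, and each table holds 1 library from each group. Knockout libraries were set against the WT library of the same table. This gave 4 differences per gene, which share the 2 WT libraries and so are not independent. The labels do not say that the libraries came from separate cultures, so p-values measure only the spread between these samples, which may be technical.

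In the Hippo pathway a kinase cascade, with STK3 and STK4 acting on LATS1 and LATS2, phosphorylates the coactivators YAP1 and WWTR1 (also called TAZ) and holds them in the cytoplasm. Unphosphorylated YAP1 and WWTR1 enter the nucleus, where they bind the DNA-binding TEAD factors and switch on genes such as CTGF, CYR61 and ANKRD1. Cell shape, tension on the actin cytoskeleton, cell contact and polarity act on this pathway, and the main control is on the protein rather than on the transcript. Transcript levels of the components therefore do not measure the activity of the pathway. The sequencing was of bulk RNA, in which fewer cells of a type and less RNA per cell cannot be told apart.

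The promoters of the members are shown first, because TEAD factors bind a known hexamer, GGAATG. On the opposite strand this motif reads CATTCC. RefSeq promoter sequences (GRCh38.p14) were matched by symbol for 8 of the 10 members, all but CYR61 and TEAD4, with 11 start sites among them. The 250 bases before each start were searched on both strands. The authors' files were made on hg19, and no coordinates of theirs were used. At least 1 hexamer was found in 5 of the 11 windows (45.5%), against 4175 of all 35116 windows (11.9%). CTGF had 3 hexamers, all on the gene's own strand, starting 169, 104 and 95 bases before the start. At least 3 were found in 29 of all windows (0.0826%). ANKRD1 had 2, starting 220 and 128 bases before the start, and at least 2 were found in 0.94% of all windows. AMOTL2 (1 of 2 windows), YAP1 and AJUBA (1 of 2 windows) had 1 hexamer each. In the windows of WWTR1, AMOTL1 and LATS2 none was found, which says only that these letters are not in these windows. The CTGF sequence, chr6:131951374-131951622 on the minus strand, runs 5′ to 3′ from 250 to 2 bases before the start, lies in no exon annotated on that strand, and has the hexamers in capitals.
CTGF: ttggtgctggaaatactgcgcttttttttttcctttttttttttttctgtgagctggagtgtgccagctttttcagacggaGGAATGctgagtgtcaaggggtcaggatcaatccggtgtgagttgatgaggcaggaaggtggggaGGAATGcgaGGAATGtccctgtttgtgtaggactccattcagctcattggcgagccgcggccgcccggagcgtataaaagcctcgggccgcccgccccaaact

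The other hexamers are shown with 12 bases on each side, on the strand of the gene and 5′ to 3′, so that the sites can be compared with those of CTGF. The first ANKRD1 site (chr10:90921290-90921319, minus strand) and the YAP1 site (chr11:102110273-102110302, plus strand) lie outside annotated exons of their strand. The second ANKRD1 site (chr10:90921198-90921227, minus strand), the AMOTL2 site (chr3:134374499-134374528, minus strand) and the AJUBA site (chr14:22976884-22976913, minus strand) lie wholly inside exons of their strand in the GENCODE annotation. Only AMOTL2 has the hexamer on the opposite strand, as CATTCC.
ANKRD1, 220 bases before the start: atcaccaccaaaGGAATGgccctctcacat
ANKRD1, 128 bases before the start: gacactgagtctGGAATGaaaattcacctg
AMOTL2, 69 bases before the start: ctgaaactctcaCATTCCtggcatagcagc
YAP1, 162 bases before the start: cgggagtgtgcaGGAATGtagcaacttgca
AJUBA, 59 bases before the start: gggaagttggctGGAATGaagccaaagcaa

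**Figure D1:**
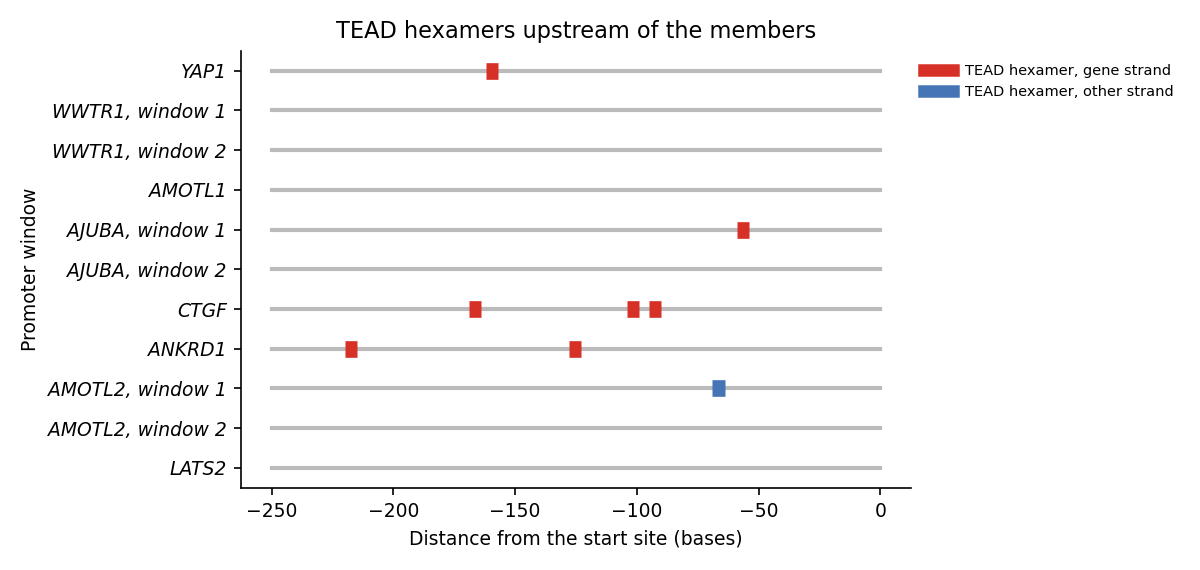
Each grey line is a window of 250 bases before a RefSeq start site, with distance from the start in bases on the horizontal axis and the gene on the vertical axis. Blocks are TEAD hexamers on the gene's strand (red) or the other strand (blue), and CTGF with 3 and ANKRD1 with 2 are the windows with more than 1.

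The windows were also searched for the AP-1 site TGANTCA and the CArG box, which the factor SRF binds. AP-1 proteins often bind beside TEAD. ANKRD1 held an AP-1 match 195 bases before its start, between its hexamers, and it was the only member window with such a match, against 6.57% of all windows. No member window (0 of 11) held a CArG box. With a share of 1.16% in all windows, 11 windows are too few to show a difference. These matches describe sequence and were not tied to binding, and no binding data were analysed here.

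Among the target genes, ANKRD1, CYR61 and CTGF were low in WT and many times higher in every knockout library. ANKRD1 encodes a nuclear and sarcomeric ankyrin-repeat protein of stretched muscle. With the first table given before the second, here and for the other genes, its level was 7.81 and 6.53 FPKM in WT, 164.7 and 107.2 in SNAI1_KO_1, and 164.4 and 124.0 in SNAI1_KO_2. The ratio to WT was 19.3 as a geometric mean, between 16.4 and 21.1 over the 4 differences. ANKRD1 ranked 41.4% of the way up the 13909 genes tested by mean level in WT, and its difference from WT was the fifth highest of them.

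CYR61 (CCN1), a secreted matricellular protein that binds integrins, was 7.76 and 6.96 FPKM in WT, 68.7 and 64.9 in SNAI1_KO_1, and 62.8 and 89.8 in SNAI1_KO_2. Its ratio to WT was 9.64, between 8.09 and 12.9. CTGF (CCN2), a related secreted protein of the same family, was 9.26 and 7.06 FPKM in WT, 52.9 and 45.0 in SNAI1_KO_1, and 46.1 and 64.5 in SNAI1_KO_2. Its ratio to WT was 6.38, between 4.98 and 9.13. For all of ANKRD1, CYR61 and CTGF the lowest knockout library lay above the highest WT library. The share of all genes tested that separate in this way was not counted, here or for AMOTL2 and YAP1 below. On the looser measure of lying above WT in all 4 differences, the share was 26.2%. The highest CYR61 and CTGF libraries were both SNAI1_KO_2 of the second table, while the highest ANKRD1 libraries were those of the first table. By the size of the difference from WT CYR61 ranked 19 and CTGF 52 of the 13909 genes.

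AMOTL2 encodes an angiomotin-like protein that binds YAP1 and holds it outside the nucleus, and its gene is itself a YAP target. It was 50.4 and 49.3 FPKM in WT, 106.5 and 88.7 in SNAI1_KO_1, and 99.9 and 107.8 in SNAI1_KO_2. The ratio to WT was 2.02, between 1.80 and 2.19, and the groups did not overlap. LATS2, the kinase that phosphorylates YAP1 and WWTR1 and whose gene YAP induces, had the lowest mean of the members in WT. It was 5.13 and 6.66 FPKM in WT, 6.33 and 7.19 in SNAI1_KO_1, and 6.0 and 7.05 in SNAI1_KO_2. Each LATS2 difference within a table was positive, with ratios between 1.06 and 1.23, but the second WT library lay above both knockout libraries of the first table. The ratios of the targets thus ran from 1.13 for LATS2 to 19.3 for ANKRD1.

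**Figure D2:**
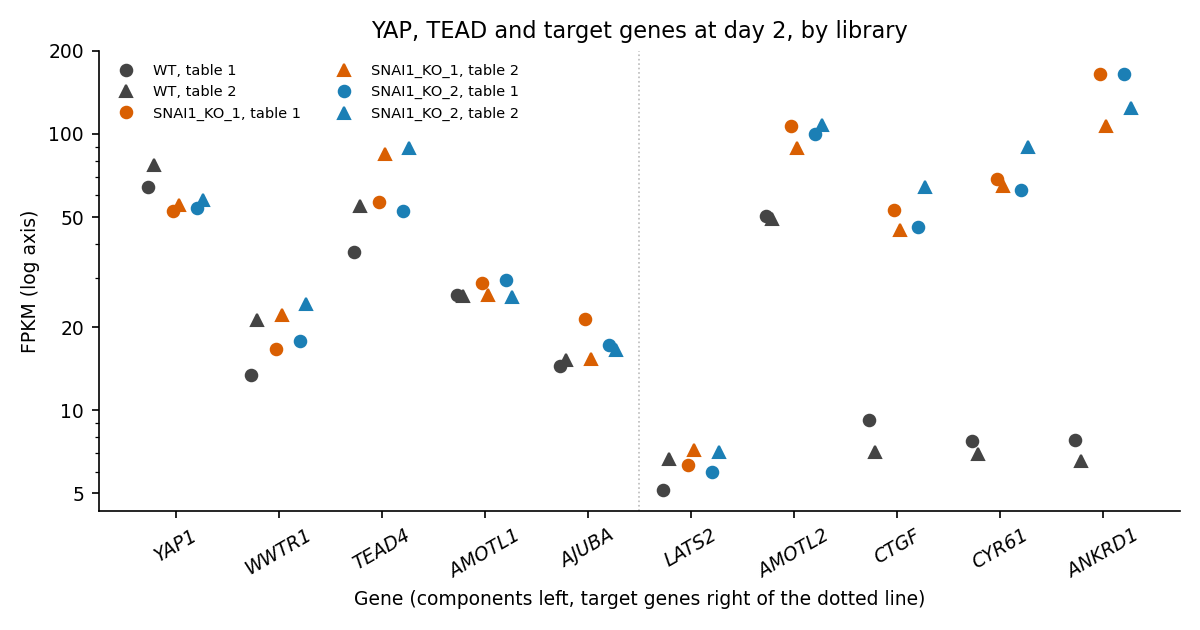
FPKM of each member (horizontal axis) on a log axis, one point per library, with colour for the group and circles or triangles for the first or second table. The WT points of CTGF, CYR61 and ANKRD1 lie between 6.53 and 9.26 FPKM, below all knockout points, while those of LATS2 and AMOTL1 overlap the knockout points.

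The components differed from WT by less than most of the targets did, and not in a single direction. YAP1, the coactivator itself, was among the more abundant transcripts, with 90.3% of the genes tested below it in WT. It was 64.3 and 77.1 FPKM in WT, 52.6 and 55.3 in SNAI1_KO_1, and 54.1 and 57.9 in SNAI1_KO_2. All knockout libraries lay below both WT libraries, with ratios between 0.717 and 0.841. YAP1 was the only member lower than WT in all 4 differences. WWTR1, its paralog, was 13.4 and 21.3 FPKM in WT, 16.6 and 22.0 in SNAI1_KO_1, and 17.8 and 24.2 in SNAI1_KO_2. Its ratios were between 1.04 and 1.33, and its values differed more between the tables than between the groups. The sum of YAP1 and WWTR1 was 77.7 and 98.4 FPKM in WT and between 69.3 and 82.1 in the knockout libraries, lower than WT within each table. WWTR1 made up 17.3% and 21.6% of that sum in WT and between 24% and 29.5% in the knockout libraries.

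TEAD4, a DNA-binding partner of YAP1 and WWTR1, had the highest ratio among the components. It was 37.3 and 54.8 FPKM in WT, 56.8 and 84.3 in SNAI1_KO_1, and 52.7 and 89.3 in SNAI1_KO_2. Its ratios to WT were close to each other, between 1.42 and 1.63, although the WT library of the second table lay above SNAI1_KO_2 of the first. AMOTL1, the relative of AMOTL2, was 26.1 and 26.0 FPKM in WT, 28.9 and 26.1 in SNAI1_KO_1, and 29.5 and 25.7 in SNAI1_KO_2. Its ratios ran from 0.989 to 1.13, and its direction was not the same in all 4 differences. AJUBA, a LIM-domain scaffold that binds LATS kinases and sits at cell junctions, was 14.5 and 15.3 FPKM in WT, 21.4 and 15.3 in SNAI1_KO_1, and 17.3 and 16.5 in SNAI1_KO_2. Its difference lay mainly in the first table, with ratios of 1.48 and 1.19 there and 1.0 and 1.08 in the second. With library means set equal, 1 of the 4 AJUBA differences was negative and AMOTL1 was above WT in 2 and below it in 2. No other member changed direction in any difference under the scalings and pseudocounts tried.

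On the log2(FPKM + 1) scale, which understates changes of low genes, the mean of the 4 differences was 4.09 for ANKRD1 (SD 0.18), 3.10 for CYR61 (SD 0.28), 2.53 for CTGF (SD 0.35), 1.0 for AMOTL2 (SD 0.12) and 0.15 for LATS2 (SD 0.086). It was 0.60 for TEAD4 (SD 0.085), 0.23 for WWTR1 (SD 0.14), 0.22 for AJUBA (SD 0.23), 0.07 for AMOTL1 (SD 0.093) and -0.35 for YAP1 (SD 0.11). The median was 2.53 over the 5 targets and 0.22 over the 5 components, beside -0.05 over all genes tested. Above WT in all 4 differences were 5 of 5 targets and 3 of 5 components, and 26.2% of all genes tested. YAP1 was below WT in all 4, as were 35.1% of all genes. In a limma fit of both knockout groups against WT, with the table as a block, 31.3% of all genes had an adjusted p under 0.05. Of all genes 15.8% were higher and 15.4% lower. The members were selected on this contrast, so no count of calls is given for them.

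**Figure D3:**
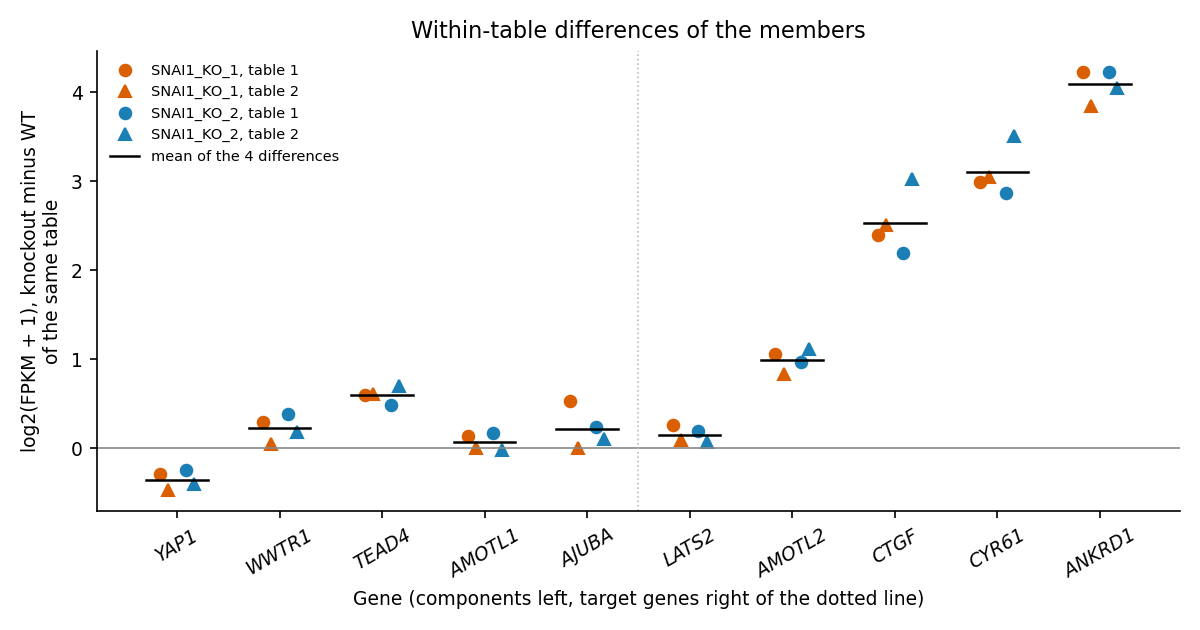
Knockout minus WT of the same table on the log2(FPKM + 1) scale for each member, with 1 point per knockout library and a black bar for the mean of the 4 differences. The targets CTGF, CYR61 and ANKRD1 lie well above 0 in both tables, the components stay between -0.47 and 0.70, and YAP1 alone is below 0 throughout.

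The knockout groups were then compared with each other, a contrast that did not enter the choice of members. No member differed between SNAI1_KO_2 and SNAI1_KO_1 (0 of 10), each with an adjusted p of 1.0 by limma, and the smallest unadjusted p was 0.27, for WWTR1. Over all 13909 genes 0 passed (0%), with 521 at an unadjusted p under 0.05. The 95% intervals of the difference were wide for the strongest targets. For CTGF the difference was 0.16 on the log2 scale with an interval from -0.36 to 0.67, and for CYR61 it was 0.17 with an interval from -0.25 to 0.59. For ANKRD1 it was 0.10, from -0.15 to 0.36. For YAP1 the interval ran from -0.13 to 0.23 and for TEAD4 from -0.20 to 0.18. These intervals do not show that the groups were alike, and they leave room for differences of those sizes.

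The relatives of the members were examined next, since TEAD4 and the target genes belong to families of related genes. TEAD2 was the most abundant TEAD transcript in WT, at 99.3 and 145.1 FPKM, followed by TEAD1 at 81.8 and 67.2. TEAD2 fell in the knockout groups to between 69.3 and 98.6 FPKM, by -0.53 ± 0.045 (SE) on the log2 scale (adjusted p 0.00122 by limma). TEAD1 fell to between 48.9 and 60.7 FPKM, by -0.45 ± 0.060 (adjusted p 0.00508). TEAD3 rose from 22.5 and 35.1 FPKM to between 30.1 and 51.3, by 0.44 ± 0.060 (adjusted p 0.00522). Without the table as a block none of the TEAD1, TEAD2 and TEAD3 calls held (adjusted p 0.184, 0.318 and 0.550). TEAD1 also did not pass when WT of the first table was left out (0.0586), nor TEAD3 when WT of the second was (0.0540).

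The TEAD family as a sum was 240.9 and 302.1 FPKM in WT and between 212.9 and 286.6 in the knockout libraries, lower than WT within each table. TEAD4 made up 15.5% and 18.1% of it in WT and between 24.8% and 31.2% in the knockout libraries. TEAD3 went from 9.36% and 11.6% to between 14.1% and 17.9%. TEAD1 and TEAD2 together still held the larger part in every library. The TEAD4 share was thus higher while the summed level of the family was lower.

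**Figure D4:**
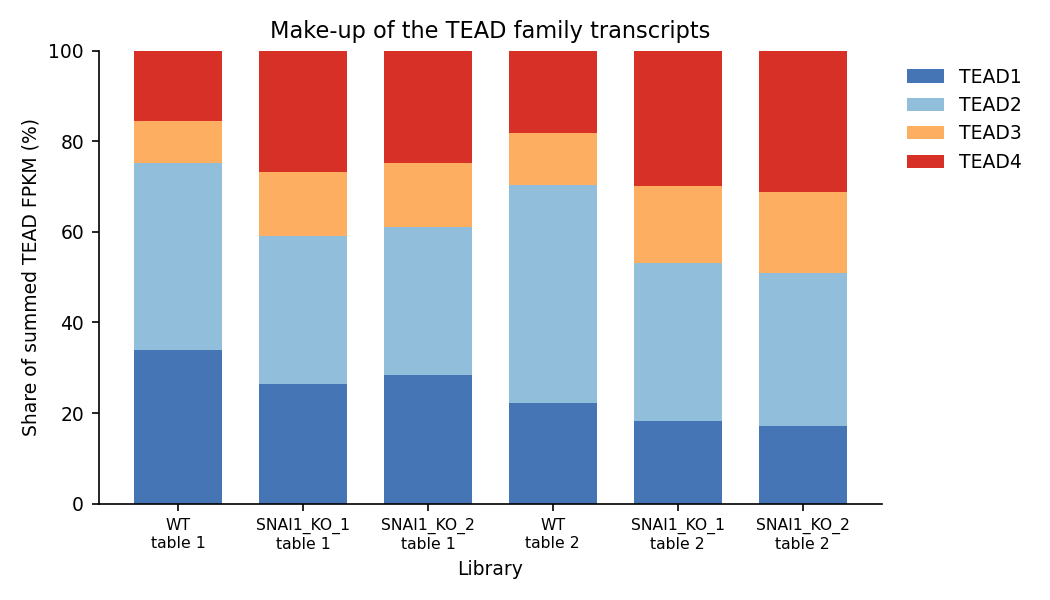
Share of the summed FPKM of TEAD1 to TEAD4 (vertical axis, %) in each of the 6 libraries. The TEAD4 share (red) is 15.5% and 18.1% in the WT libraries and at least 24.8% in the knockout libraries, and the tables also differ in the share of TEAD1.

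In the CCN family of secreted proteins CTGF and CYR61 made up nearly all of the FPKM in every library. In WT CTGF and CYR61 were at similar levels, and in each knockout library CYR61 was the higher, with between 56.2% and 58.4% of the summed FPKM of the family. The relative NOV (CCN3) was listed at 0 in both WT libraries and at 0.484 to 1.19 FPKM in the knockout libraries, and it did not pass the filter. WISP1, WISP2 and WISP3 stayed below 1 FPKM in every library. Of the ANKRD1 relatives, ANKRD2 was below 0.1 FPKM throughout and ANKRD23 had a log2 difference of 0.46 ± 0.24 (adjusted p 0.203 by limma).

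AMOT, the founding angiomotin, was below 1 FPKM in every library, so AMOTL1 and AMOTL2 made up the family. The AMOTL2 share of its summed FPKM was 65.3% and 65.0% in WT and between 77.0% and 80.2% in the knockout libraries. LATS1 and LATS2 were expressed at about the same level, with LATS2 at 46.0% and 59.7% of their sum in WT and between 46.9% and 58.1% in the knockout libraries. LATS1, LIMD1 and WTIP, the last of which are relatives of AJUBA, did not pass the threshold, at 0.15, -0.16 and 0.12 on the log2 scale (adjusted p 0.272, 0.280 and 0.349 by limma).

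To set the components beside the rest of the pathway, a further list was fitted. Chosen with earlier results of these data known, it is descriptive, and it held 57 further Hippo pathway genes. Of these, 48 were tested, 1 symbol (SAV1) was listed more than once and left out, and 8 were below the filter. By limma 13 were higher and 9 lower in the knockout groups (22 of 48, 45.8%), and 26 did not pass. Over all genes 31.3% were called, 15.8% higher and 15.4% lower. The median log2 difference was -0.06, beside -0.05 over all genes tested. The upstream scaffolds had 4 of 9 tested genes higher and 1 lower, the adhesion and polarity genes 3 of 7 higher and 1 lower, and the upstream kinases 2 of 10 higher and 3 lower. In the core kinase module 1 of 5 was called higher, STK4, a gene named here after its values were seen, at 0.37 ± 0.089 (adjusted p 0.0300). That call was lost when any 1 library was left out, with adjusted p up to 0.178. Of the genes that target YAP1 for degradation 1 of 3 was lower, and the phosphatase complex that acts on STK3 and STK4 had 1 of 6 lower.

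The largest rise on the Hippo list was that of VGLL3, a cofactor that binds TEAD factors. It was 0.248 and 0.118 FPKM in WT and between 3.85 and 5.68 in the knockout libraries, a log2 difference of 2.25 ± 0.15 (adjusted p 0.000695 by limma). VGLL3 passed the filter only through its knockout libraries. Of the Hippo genes below the filter, FAT2 and FAT4 were below WT in all 4 differences, and RASSF5 and DCHS2 above it in all 4. CRB3, an apical polarity protein, went from 4.55 and 5.04 FPKM to between 22.3 and 26.5 (2.16 ± 0.075, adjusted p 0.000181). TNIK, a kinase of the MAP4K group, rose by 1.53 ± 0.12 and WWC1 (KIBRA), a scaffold that activates LATS kinases, by 1.36 ± 0.098. The calls of VGLL3, CRB3, TNIK and WWC1 held in every alternative in which they could be fitted.

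DCHS1, an atypical cadherin that binds FAT4, was the lowest, with 9.82 and 12.3 FPKM in WT and between 3.18 and 4.49 in the knockout libraries (-1.31 ± 0.093, adjusted p 0.000749). TAOK3 and TAOK2, kinases upstream of the cascade, fell by 0.80 and 0.47 on the log2 scale (adjusted p 0.0150 and 0.00787). TAOK3 did not pass without either WT library (adjusted p 0.0945 and 0.119), and TAOK2 did not pass without that of the second table (0.0712). Of the abundant genes that did not pass, CSNK1D, STRN4 and SCRIB had log2 differences of -0.13, -0.09 and -0.11. Leaving out either WT library left 11 genes of the list called (8 higher and 3 lower without that of the first table, 7 and 4 without that of the second). The fit without the table block called 7, 6 of them higher.

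A list of 25 further YAP target genes, mostly from a signature used across cell types, was fitted in the same way. It was also chosen with earlier results of these data known, so its counts are descriptive. Of 20 tested, 11 were higher and 5 lower in the knockout groups (16 of 20, 80%), where 31.3% of all genes were called, 15.8% higher and 15.4% lower, and 5 more were below the filter. The median log2 difference was 0.67, beside -0.05 over all genes tested. The filter averages over more knockout than WT libraries, which favours genes higher in the knockout groups, and IGFBP3 passed only through these. Of the targets below the filter, FOXF2 was below WT in all 4 differences. TGFB2 and AREG were above it in all 4. IGFBP3, a secreted binder of insulin-like growth factors, went from 0.813 and 0.495 FPKM to between 20.7 and 25 (3.84 ± 0.080 (SE), adjusted p 0.000139 by limma).

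CAV1, the main protein of caveolae, went from 2.12 and 1.58 FPKM in WT to between 21.9 and 29.5 in the knockout libraries, with a log2 difference of 3.21 ± 0.078 (adjusted p 0.000139 by limma). NUAK2, a kinase that acts on actin and myosin, rose by 2.00 ± 0.15 (adjusted p 0.000954). IGFBP3, CAV1 and NUAK2 passed in every alternative. CTGF and CAV1 also respond to TGF-beta and other signals.

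The falls among the targets were small. ARHGEF17, a guanine nucleotide exchange factor, fell by 0.54 on the log2 scale, MYOF, a membrane repair protein, by 0.39, GADD45A, a stress-response gene, by 0.38, and ASAP1, a regulator of Arf GTPases, by 0.34, with adjusted p of 0.0177, 0.0205, 0.00546 and 0.0303 by limma. MYOF and ASAP1 did not pass when any 1 library was left out, with adjusted p up to 0.126 and 0.149 there. ARHGEF17 did not pass without the WT library of either table (adjusted p 0.140 and 0.0753) or SNAI1_KO_1 of the second (0.0649), nor GADD45A without WT of the second (0.0562). NEDD9, DOCK5 and RBMS3, the most abundant of those that did not pass, had log2 differences of 0.02, 0.13 and 0.42. The split of the targets depended on the libraries and on the block, mainly for the genes called lower. With WT of the first table left out 8 were called higher and 1 lower, with WT of the second left out 11 and 0, and with any other library left out 10 or 11 and 1 or 2. The fit without the block called 8 higher and 0 lower by limma. At an unadjusted p under 0.05, 5 targets were lower without WT of the second table and 0 without the block.

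**Figure D5:**
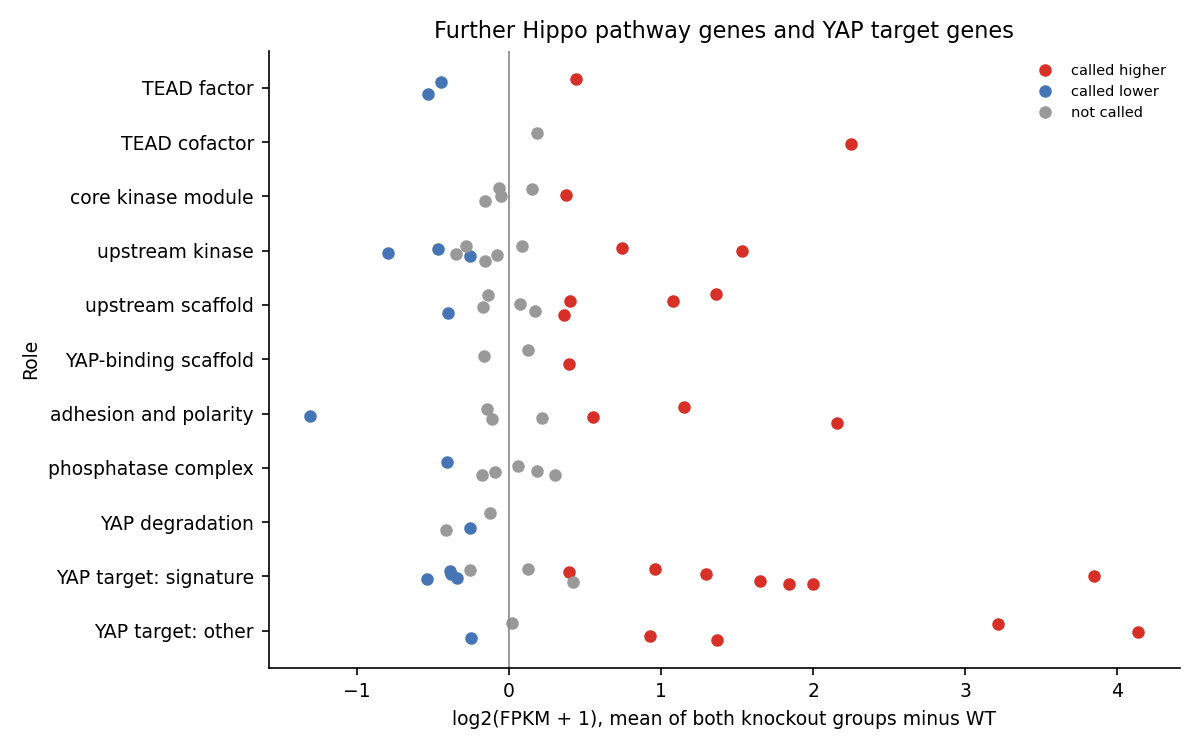
Log2 difference of both knockout groups against WT (horizontal axis) for each further Hippo pathway gene and YAP target gene tested, grouped by role (vertical axis), red for genes called higher, blue for lower and grey for not called. Most of the YAP targets called are to the right of 0, among them IGFBP3 at 3.84, while the Hippo genes lie on both sides of 0 with VGLL3 and CRB3 farthest up and DCHS1 farthest down, and PTPN14 stands in both lists.

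The sequence window was then counted over the same lists. The TEAD hexamer was found in 7 of 25 windows of the further targets (28%), in 9 of 66 windows of the further Hippo genes (13.6%) and in 11.9% of all windows. In a list of 17 actin, myosin and SRF-linked contractile genes it was found in 10 of 40 windows (25%), as was the CArG box (25%). Counted by gene, the hexamer was found in 7 of 18 further targets with a window (38.9%) and 8 of 46 further Hippo genes (17.4%). It was found in 9 of 15 contractile genes (60%) and in 5 of the 8 members with a window (62.5%). A gene with more windows has more chances of a match. No share by gene was counted over all genes. Windows of the same gene can overlap, and no test was made of these shares. Of those 17 genes, a list also made with earlier results known, 13 were called higher and the other 4 were not called. The median log2 difference was 0.90, beside -0.05 over all genes tested, of which 15.8% were called higher. ACTA1, the skeletal muscle actin, went from 2.81 and 5.67 FPKM in WT to between 68.9 and 134.7 in the knockout libraries.

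ANKRD1, CYR61 and CTGF were each set against all other genes tested to find those with the most similar 4 differences, by the root mean square distance on the log2 scale. For ANKRD1 the nearest were ACTA1 (0.166), IGFBP3 (0.305) and NPPB (0.361), the last of which encodes a natriuretic peptide. For CYR61 they were STC2 (0.143), a secreted glycoprotein, TAC1 (0.163), a neuropeptide precursor, and LINC00678 (0.192), a long noncoding RNA. For CTGF they were the keratin gene KRT17 (0.114) and the noncoding RNAs MIR4435-2HG (0.148) and AC009446.1 (0.172). KRT17 was below 0.1 FPKM in both WT libraries and TAC1 was at 0.173 and 0.115. The likeness of KRT17 to CTGF and of TAC1 to CYR61 therefore holds only on this scale. IGFBP3 was also below 1 FPKM in WT, and its ratio to WT was 35.7 beside 19.3 for ANKRD1. Nearness over 4 differences is a description.

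Facts of the whole series bear on these values. FPKM sums were between 600887 and 632318 per library over the symbols used, and absolute depth is unknown. SNAI1 itself was higher in the knockout libraries, with a log2 difference of 0.58 ± 0.074 (adjusted p 0.00461 by limma, 0.0502 when WT of the first table was left out and 0.0761 when the block was). A frameshift can leave a transcript in place, so this level does not check the labels. Summed FPKM of 8 mesoderm markers was 1599 to 1671 in WT and 1091 to 1172 in the knockout libraries, with 1 marker called higher and 6 lower. For 6 pluripotency markers it was 631 to 740 in WT and 858 to 1167, with 3 called higher, and for 5 endoderm markers 2894 to 3385 and 1315 to 1966, with 1 higher and 2 lower. That sum is mostly CER1. The other 4 endoderm markers, summed after the values were seen, gave 123 FPKM in WT and 186 and 170 in the knockout libraries of the first table, and 343 against 417 and 338 in the second. Amnion or trophoblast markers (7) summed to 28.6 to 44.2 FPKM in WT and 29 to 50.6 in the knockout libraries, with 2 higher and 1 lower of the 3 that passed the filter. GABRP, called higher, was at 0.0415 and 0.149 FPKM in WT and passed only through its knockout libraries. Of those below the filter, ISL1 was below WT in all 4 differences and KRT7 above it in all 4. Neural ectoderm markers (4) summed to 1.85 to 2.79 FPKM in WT and 0.312 to 0.777 in the knockout libraries, and none passed the filter. The pluripotency sum is mostly POU5F1, at 485 and 630 FPKM in WT and between 677 and 1014 in the knockout libraries. The other pluripotency markers were not summed apart. Of the sums over whole lists, only the amnion or trophoblast sums overlapped between WT and the knockout groups. The part of cell type in the results was not tested.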

How the data were processed

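RNA-seq of 6 libraries was analysed, WT, SNAI1_KO_1 and SNAI1_KO_2 with 2 libraries each. The authors deposited FPKM values per gene symbol in 2 tables of 38100 and 58324 rows. The unit is named in a heading of the second table only, and the first holds values of the same kind. The submitters' processing notes name hg19, BWA, Bowtie and RSEM without roles or versions. Per the labels cells received 40 ng/ml activin A and 50 ng/ml BMP4 for 2 days, and 2 ug of total RNA entered each library. In the study's methods these doses are swapped.

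Symbols found once in both tables (37803) and averaging 1 FPKM or more over the 6 libraries (13909) were tested on log2(FPKM + 1) with limma (version 3.58.1, R version 4.3.3), with group and table as terms and a mean-variance trend (residual degrees of freedom 2, prior 3.34). Two-sided p-values were adjusted over all of these genes by Benjamini-Hochberg, and 0.05 was the threshold. More of the 6 libraries were knockout than WT, so a gene high only in the knockout groups passed the filter more easily. The table pairs the libraries: differences between tables correlated across genes, which are not independent, with r = 0.616, 0.666 and 0.676 between the groups. Column names show the group only, and other per-sample columns numbered 0. FPKM gives no read totals, so no counting interval is given and no count test was run.

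The members and lists were chosen with earlier results of these data known. Named were all members, SNAI1, up to 4 genes called higher, 4 called lower and 3 abundant genes not called in each further list, relatives of the members, and the 3 nearest genes of ANKRD1, CYR61 and CTGF. Of these, 1 is not reported here. Alternatives tried were leaving out the block, the trend, the filter or each library, a stricter filter (mean of 5 FPKM), pseudocounts of 0.1 and 10, and quantile, median-ratio and equal-mean scaling. The fit was tested on simulated data. Promoters came from RefSeq (GRCh38.p14).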

Additional observations from a re-analysis of the deposited data

How the results depend on the processing

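With the filter, the block and all libraries kept, the pseudocounts, scalings, stricter filter and no trend left the counts of genes called within 1.5 times the reported ones, from 3411 to 4648 over all genes against 4348. Without the replicate block, that is without pairing libraries by table, 1065 genes were called, with 7 in the Hippo list against 22 and 8 in the YAP target list against 16, and 71.9% of calls over all genes were higher, against 50.6%. With no filter 2550 were called over all genes (29953 tested), and 17 and 11 in the lists. Leaving out 1 library at a time gave 1825 to 2919 genes over all genes, 11 to 18 in the Hippo list and 9 to 12 in the YAP target list; with 1 library left in a group, that library was assumed to vary like the others. The scaling to equal library means gave 44.9% of calls higher. For the members, a pseudocount of 10 gave log2 differences of 1.77 for CTGF, 2.22 for CYR61, 3.11 for ANKRD1 and 0.067 for LATS2, smaller by the construction of that scale, and no other alternative moved a member by more than its SD. AMOTL1 turned from 0.07 to -0.0057 without WT of the first table, and no other member changed sign. Of the single genes named, TAOK3, STK4, ARHGEF17, MYOF and ASAP1 did not pass without the filter (adjusted p by limma between 0.0530 and 0.0750), and without the block TAOK3, TAOK2, STK4, ARHGEF17, MYOF, GADD45A and ASAP1 did not (0.162 to 0.426). The comparison of the knockout groups called 0 members in every alternative. Dropping the filter adds genes to the adjustment and also changed the SE, which for CRB3 went from 0.075 to 0.061. The cause of the changes under the alternatives was not tested. The values carry no read totals, so the depth behind each gene is unknown.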
